A study of Mus musculus with 6 samples.

Results

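The genes of the colony-stimulating factors and their receptors were followed in bone marrow-derived macrophages: the ligand genes Csf1, Csf2 and Csf3 and the receptor genes Csf1r, Csf2ra, Csf2rb and Csf3r. All probe sets annotated to these 7 genes were taken, with no choice by their values, which gave 14 of the 22690 probe sets on the array: 4 for Csf1, 3 for Csf1r, 2 for Csf2ra and 1 each for Csf2, Csf3, Csf2rb and Csf3r, with 1 more shared by Csf2rb and its near-identical neighbour Csf2rb2. The Mouse Genome 430A 2.0 array was used for 6 samples, a single one per genotype and time. IκBβ-knockout macrophages were taken after 0 h, 1 h or 5 h in LPS at 1 µg/ml, and wild-type macrophages were taken at the same 3 times. Both genotypes are given as C57BL/6J. LPS, lipopolysaccharide of the bacterial outer membrane, is sensed by Toll-like receptor 4, and IκBβ is an inhibitor that binds NF-κB. In every group, marrow cells had been differentiated for 7 days in 30% supernatant of L929 cells, a fibroblast line used as a source of M-CSF, so all groups, 0 h included, had been grown with the ligand of Csf1r.

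Colony-stimulating factors are secreted proteins that make marrow precursors survive, divide and mature into myeloid cells. Csf1 encodes M-CSF, which acts through the receptor tyrosine kinase made from Csf1r and keeps macrophages alive. Csf2 encodes GM-CSF, which binds an alpha chain (Csf2ra) paired with the common beta chain (Csf2rb) that the IL-3 and IL-5 receptors also use. Csf3 encodes G-CSF, which drives neutrophil production through Csf3r. The receptors of GM-CSF and G-CSF have no kinase of their own and signal through JAK kinases and STAT factors.

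The sequence just before the start of a gene holds many of the sites at which LPS-activated factors bind, so the 250 bases before the RefSeq start (GRCm38.p6) are shown for 3 members whose signals changed with LPS. Capitals mark matches to the NF-κB consensus found by a search of both strands. Windows were used for 4 of the 7 genes: Csf1, Csf2, Csf2ra and Csf3r. No window was available for Csf3 and Csf2rb, and none of Csf1r is given here.
Csf1 (chr3:107760470-107760719, minus strand): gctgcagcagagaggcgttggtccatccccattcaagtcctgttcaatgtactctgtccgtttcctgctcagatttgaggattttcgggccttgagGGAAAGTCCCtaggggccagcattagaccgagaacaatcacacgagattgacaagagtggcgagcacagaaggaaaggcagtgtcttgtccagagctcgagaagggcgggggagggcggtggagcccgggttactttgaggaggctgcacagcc
Csf2 (chr11:54249900-54250149, minus strand): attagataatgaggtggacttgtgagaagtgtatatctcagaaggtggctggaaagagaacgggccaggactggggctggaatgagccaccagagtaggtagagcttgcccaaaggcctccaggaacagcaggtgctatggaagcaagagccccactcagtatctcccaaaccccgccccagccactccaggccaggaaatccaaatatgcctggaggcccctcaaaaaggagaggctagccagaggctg
Csf3r (chr4:126024409-126024658, plus strand): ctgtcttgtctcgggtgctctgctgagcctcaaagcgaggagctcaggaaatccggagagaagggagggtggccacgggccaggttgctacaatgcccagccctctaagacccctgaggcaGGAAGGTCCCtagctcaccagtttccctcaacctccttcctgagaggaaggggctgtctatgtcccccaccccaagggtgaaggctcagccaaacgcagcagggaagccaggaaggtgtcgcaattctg
The Csf1 window held an NF-κB match 154 to 145 bases before the start, and the Csf3r window held one 129 to 120 bases before it. The Csf2 window held none, and none of these 3 windows held the AP-1 motif TGANTCA, the TATA motif TATAAA or the cAMP response element TGACGTCA. The Csf2ra window, not shown, held a single cAMP response element 92 to 85 bases before its start. Over all 32851 windows of that length in the table, 9.55% held an NF-κB match, 6.75% an AP-1 match, 12.4% a TATA match and 1.55% a cAMP response element. No match overlapped another in these windows. These are matches of letters and were not tested for binding.

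Signals are MAS5 intensities on a linear scale. The trimmed mean of every array was 499.9, so the arrays had been brought to a common scale before deposit. Values for the 3 times are given in the order 0 h, 1 h and 5 h throughout. The array medians were 117, 98.7 and 65.2 in knockout and 113, 105 and 70.7 in wild type. Nfkbib, which encodes IκBβ, read 30.5, 136 and 56.1 in knockout and 477, 3330 and 5007 in wild type. The X-inactivation RNA Xist read 5634, 4189 and 2149 in knockout and 52.1, 80.4 and 62.1 in wild type on its brightest probe set. The Y-linked gene Eif2s3y read 3.27, 0.896 and 10.7 in knockout and 799, 860 and 570 in wild type. The knockout arrays thus carry female and the wild-type arrays male RNA, which the labels do not state, so sex and genotype cannot be told apart. Macrophage markers had all 9 of 9 genes above the array median on at least 1 array. Their summed signal was 69679 to 83150 in knockout and 74418 to 88743 in wild type.

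LPS changes were tested with limma across the 13101 probe sets that exceeded their array's median on at least 1 array, with genotype as an additive term and signals under 18.2, the 25th percentile of all values, raised to that floor. Called means a Benjamini-Hochberg adjusted p under 0.05. The fit rests on 1 array per genotype and time and takes the spread between the genotypes' LPS changes as error, so it does not cover the spread between animals. All 14 probe sets passed the filter. Csf2 passed through its 1 h arrays alone, and Csf3 and 3 of the 4 Csf1 probe sets through LPS arrays alone. These had to be high there to be tested, so the counts of ligands and the p-values of these probe sets are given as a description.

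The 3 ligand genes were all higher at 1 h of LPS than before it, and they parted at 5 h. Csf2 was back under the floor at 5 h, whereas Csf1 and Csf3 were higher at 5 h than at 1 h. At 1 h all 6 ligand probe sets were called higher, where 5.32% of all probe sets tested were. At 5 h, 5 of the 6 were called higher than at 0 h, where 20.8% of all probe sets were.

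**Figure D1:**
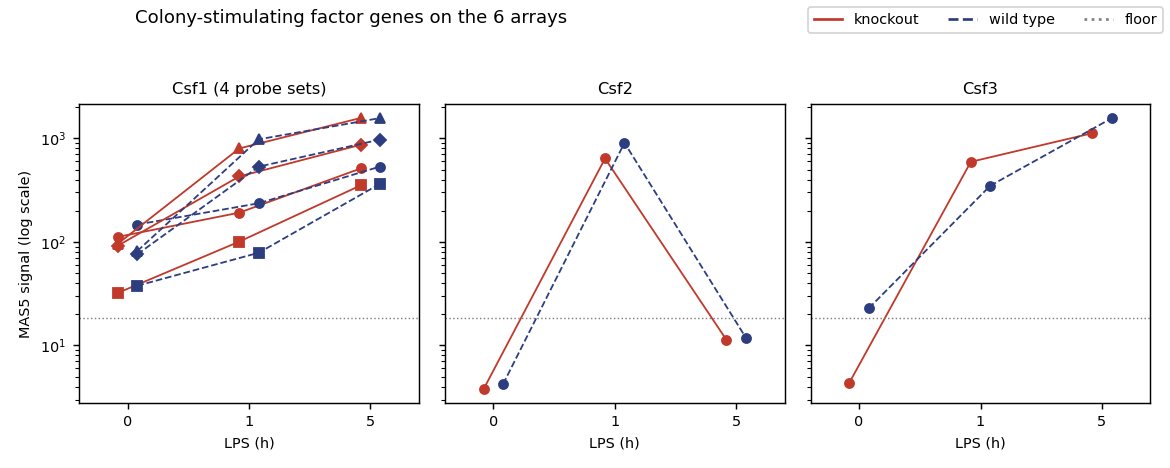
MAS5 signal (log scale) of the ligand genes against time in LPS, with knockout as solid red and wild type as dashed blue lines, 1 array per point. In the Csf1 panel circles are 1425154_a_at, squares 1425155_x_at, diamonds 1448914_a_at and triangles 1460220_a_at, and the dotted line is the floor of 18.2. Csf2 peaks at 1 h, and the Csf1 probe sets and Csf3 are highest at 5 h on the arrays of both genotypes.

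Csf2, the GM-CSF gene, gave signals of 3.78, 639 and 11.3 in knockout and of 4.22, 905 and 11.9 in wild type. Both 1 h arrays stood far above the other 4, all of which were under the floor. The rise at 1 h was at least 41.7-fold (log2 5.38, SE 0.18, limma adjusted p = 0.00187, higher in 2 of 2 pairs of arrays). The floor made the other 4 signals equal, so this SE and its p-values leave out any spread at 0 h and 5 h. Between 1 h and 5 h Csf2 fell by at least 5.38 on the log2 scale (limma adjusted p = 0.000731), where 41.8% of all probe sets were called lower. As both its 0 h and 5 h signals were under the floor, no change between those times is given. Il3, which neighbours Csf2 on chromosome 11 in the RefSeq annotation and encodes another ligand of the common beta chain, read 4.86, 3.80 and 3.11 in knockout and 5.06, 2.56 and 2.81 in wild type. All 6 of those values were under the floor.

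Csf3, the G-CSF gene, gave 4.37, 593 and 1121 in knockout and 22.9, 349 and 1564 in wild type. Each LPS array was above both 0 h arrays, and both 5 h arrays were above both 1 h arrays. The rise at 1 h was at least 22.3-fold, since the knockout 0 h signal was under the floor (log2 4.48, SE 0.35, limma adjusted p = 0.00787), and without the filter it was not called (limma adjusted p = 0.0807). At 5 h it was at least 64.8-fold (log2 6.02, SE 0.35, limma adjusted p = 0.000526). The step between 1 h and 5 h was a log2 change of 1.54 (SE 0.35, limma adjusted p = 0.0204), where 19% of all probe sets were called higher. Without the filter, with the floor lowered to the 10th percentile, and without the knockout 5 h or the wild-type 5 h array that step was not called, and without the wild-type 1 h array it was called at 0.96.

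Csf1, the M-CSF gene, was read by 4 probe sets. The brightest, 1460220_a_at, gave 96.0, 799 and 1573 in knockout and 81.5, 979 and 1570 in wild type. It rose at 1 h (log2 3.32, SE 0.17, limma adjusted p = 0.00362; 0.054 without the filter) and was 17.8-fold higher at 5 h (log2 4.15, SE 0.17, limma adjusted p = 0.000407). At each time the 2 genotypes lay close together, and no time overlapped another. The step between 1 h and 5 h was a log2 change of 0.83 (SE 0.17, limma adjusted p = 0.0147), a call lost without the filter and without the knockout 1 h, the knockout 5 h or the wild-type 5 h array.

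Another Csf1 probe set, 1448914_a_at, gave 91.9, 429 and 867 in knockout and 75.8, 533 and 973 in wild type, a rise of 5.73-fold at 1 h and 11.01-fold at 5 h. Its 1 h call was lost without the filter and without the knockout 1 h or the wild-type 1 h array. The probe set 1425155_x_at gave 32.1, 101 and 351 in knockout and 37.7, 78.5 and 364 in wild type, a rise of 2.55-fold at 1 h and 10.3-fold at 5 h. The probe set 1425154_a_at gave 112, 192 and 512 in knockout and 147, 236 and 534 in wild type, a rise of 1.66-fold at 1 h and 4.08-fold at 5 h. The 4 probe sets thus went the same way and differed in size, with log2 changes at 1 h of 0.73 to 3.32. The call of 1425154_a_at at 1 h (limma adjusted p = 0.0489) was lost in 9 of 12 alternatives, and that of 1425155_x_at (limma adjusted p = 0.0254) in 7 of 12. Leaving out any 1 array lost each of these calls. Where on the transcript each probe set lies was not analysed here.

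Markers of other cells known to make these ligands were counted. Among T and NK cell genes 0 of 7 on the array exceeded the array median on any array, and the sum over the 7 was 83.2, 126 and 160 in knockout and 147, 133 and 114 in wild type. Among fibroblast genes 1 of 7 (Dcn) did, with sums of 177, 130 and 235 in knockout and 232, 253 and 230 in wild type, and limma called Dcn higher at 5 h (log2 at least 1.68). Among mast cell genes 1 of 5 did, the histidine decarboxylase gene Hdc, with sums of 120, 83.1 and 878 in knockout and 78.3, 120 and 699 in wild type. Hdc made up 827 of the 5 h sum in knockout and 648 in wild type, and both of its tested probe sets were called higher by limma at 5 h. Hdc was thus high on the arrays on which Csf1 and Csf3 were highest and Csf2 was under the floor. The other mast cell genes did not all go with it. Cpa3 was lower at 5 h than at 0 h in both genotypes, from 27.8 to 19.1 in knockout and 46.2 to 15.6 in wild type. Fcer1a and Tpsb2 were lower at 5 h in knockout and higher in wild type, and Mcpt4 was higher in both but under the floor at both times. The part of these cells in the ligand results was not tested.

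No change of a receptor gene passed the test at 1 h: 0 of the 8 receptor probe sets were called by limma in either direction, 0 had an unadjusted p under 0.05, and log2 changes ran from −0.22 to 0.27, where 4.6% of all probe sets were called lower. At 5 h, 1 of the 8, that of Csf3r, was called higher, where 20.8% of all probe sets were. Another 4 of the 8, of Csf1r, Csf2ra and the common beta chain, were called lower, a count near the 49.8% of all probe sets. The median of all probe sets tested was −0.17 at 1 h and −0.48 at 5 h on the log2 scale. Relative to the 5 h median, Csf3r stood at 1.37, Csf2rb at −0.05 and its shared probe set at −0.06. The Csf1r probe sets 1419873_s_at, 1423593_a_at and 1419872_at stood at −0.56, −0.52 and 0.17. The Csf2ra probe sets 1420703_at and 1420704_at stood at −0.03 and 0.36. In these bulk samples, fewer cells of a type and less RNA per cell cannot be told apart. Of the B cell markers, 4 probe sets of 2 genes, Ighm and Cd79b, were tested, and 3 were called lower by limma at 5 h, with a median of −2.57. The sum over 4 B cell genes was 3691, 2658 and 363 in knockout and 3516, 2429 and 342 in wild type, most of it the immunoglobulin heavy chain gene Ighm. Cd79b was also lower at 5 h than at 0 h in both genotypes. Cd79a was higher at 5 h in both, from 4.69 to 7.80 in knockout and 15.3 to 45.3 in wild type. Ms4a1 was higher at 5 h in knockout (4.51 to 20.8) and lower in wild type (11.3 to 3.17). Both of these were under the floor at 0 h. Of 4 dendritic cell probe sets tested, 1 was called higher and 1 lower, with sums over 5 genes of 8622, 8591 and 7286 in knockout and 8168, 8206 and 7116 in wild type. The part of these genes in the receptor results was not tested.

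**Figure D2:**
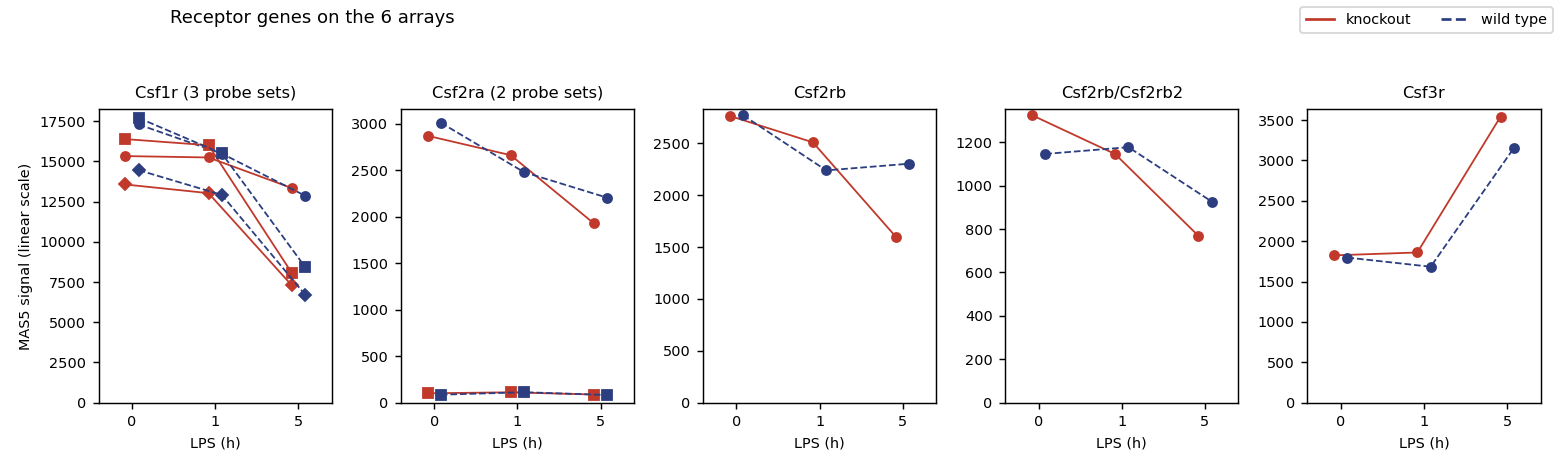
MAS5 signal (linear scale, each panel with its own range from 0) of the receptor genes against time in LPS, knockout as solid red and wild type as dashed blue lines, 1 array per point. In the Csf1r panel circles are 1419872_at, squares 1419873_s_at and diamonds 1423593_a_at, and in the Csf2ra panel circles are 1420703_at and squares 1420704_at. Csf3r is highest on both 5 h arrays, and all 3 Csf1r probe sets are lowest there, 1 of them by a small margin.

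Csf3r, the G-CSF receptor gene, gave 1825, 1860 and 3543 in knockout and 1797, 1683 and 3153 in wild type. The 0 h and 1 h arrays lay close together, and both 5 h arrays were above all 4 of them. The rise at 5 h was 1.85-fold (log2 0.88, SE 0.11, limma adjusted p = 0.00311), which is 1.37 above the median of all probe sets. It was called under all 13 alternatives, with log2 changes of 0.72 to 1.65. Csf3r is best known as a receptor of neutrophils. Among 11 neutrophil genes on the array 3 exceeded the array median on any array, and the sum over the 11 was 2677, 2214 and 2227 in knockout and 1869, 1688 and 1328 in wild type. Without the collagenase gene Mmp8 the sum over the other 10 was 429, 304 and 1406 in knockout and 401, 400.2 and 803 in wild type, higher at 5 h than at 0 h in both genotypes. The calprotectin gene S100a8 read 81.7, 91.6 and 1135 in knockout and 88.2, 104 and 499.96 in wild type, and Mmp8 read 2248, 1910 and 821 in knockout and 1467, 1288 and 525 in wild type. Camp, the cathelicidin gene, read 54.5, 14.6 and 88.6 in knockout and 29.7, 32.5 and 92.9 in wild type. Of these 3 genes 1 was called higher and 1 lower by limma at 5 h, with a median log2 change of 1.17. Most of the 5 h sum without Mmp8 was S100a8. Of the other genes in that sum, Camp and Ltf were also higher at 5 h than at 0 h in both genotypes, Ltf under the floor throughout. Ngp, Mpo and Prtn3 were lower at 5 h than at 0 h in both, and the rest went opposite ways in the genotypes. Elane and Cxcr2, genes of neutrophil elastase and a neutrophil chemokine receptor, read at most 11.02 and 11.7 in knockout and at most 38.6 and 17.4 in wild type. The part of these genes in the Csf3r result was not tested.

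Csf1r, the M-CSF receptor gene that marks the macrophage lineage, was bright on every array, and its probe sets differed at 5 h. The probe set 1419873_s_at gave 16390, 16008 and 8071 in knockout and 17705, 15497 and 8441 in wild type, a log2 change of −1.05 at 5 h (SE 0.11, limma adjusted p = 0.00202). The probe set 1423593_a_at gave 13567, 13028 and 7296 in knockout and 14458, 12920 and 6720 in wild type, a 0.50-fold level at 5 h (SE of log2 0.12, limma adjusted p = 0.00253). In both there was no overlap between the 5 h arrays and the other 4. The probe set 1419872_at gave 15334, 15247 and 13348 in knockout and 17299, 15489 and 12870 in wild type, a log2 change of −0.31 (SE 0.12, limma adjusted p = 0.0736) that was not called, although both 5 h arrays were below the other 4. These signals lie near the top of the arrays, whose highest values were 20645 to 25581, and the part of that in the difference between probe sets was not tested.

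Csf2ra, the alpha chain of the GM-CSF receptor, gave 2870, 2661 and 1927 in knockout and 3011, 2479 and 2204 in wild type on 1420703_at. Both 5 h arrays were below the other 4, with a log2 change of −0.51 (SE 0.13, limma adjusted p = 0.0228), close to the −0.48 of all probe sets, and median centring turned it to 0.25. The dimmer 1420704_at gave 100.2, 111 and 87.2 in knockout and 85.1, 112 and 82.2 in wild type and was not called at 5 h against 0 h (log2 −0.13, limma adjusted p = 0.397), though it was called higher after quantile normalization (0.63) and median centring (0.64). It was called lower between 1 h and 5 h (log2 −0.40, limma adjusted p = 0.0461), a call that 8 of 12 alternatives lost and 2 turned round. Without the knockout 0 h, the knockout 5 h or the wild-type 0 h array the 5 h call of 1420703_at was also lost.

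Csf2rb, the common beta chain, gave 2765, 2510 and 1596 in knockout and 2772, 2240 and 2304 in wild type. The knockout 5 h array was the lowest of the 6, while the wild-type 5 h array lay between the wild-type 1 h and the knockout 1 h arrays. The log2 change at 5 h was −0.53 (SE 0.21, limma adjusted p = 0.0774) and was not called, but without the wild-type 5 h array it was called at −0.83, and without the knockout 5 h array it was −0.22. The shared probe set 1450200_s_at gave 1325, 1145 and 769 in knockout and 1146, 1177 and 927 in wild type. It was called lower at 5 h (log2 −0.55, SE 0.16, limma adjusted p = 0.0345), a call lost or turned round (0.22 after median centring) in 8 of 12 alternatives. Csf2rb2, the neighbouring copy that pairs with the IL-3 receptor alpha chain in mice, gave 4705, 4299 and 3368 in knockout and 4449, 3944 and 2767 in wild type, and fell by 0.58 on the log2 scale at 5 h (limma adjusted p = 0.012), a call lost under median centring and without the knockout 0 h or the wild-type 0 h array. Signal from the 2 copies may be mixed in all of these probe sets.

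**Figure D3:**
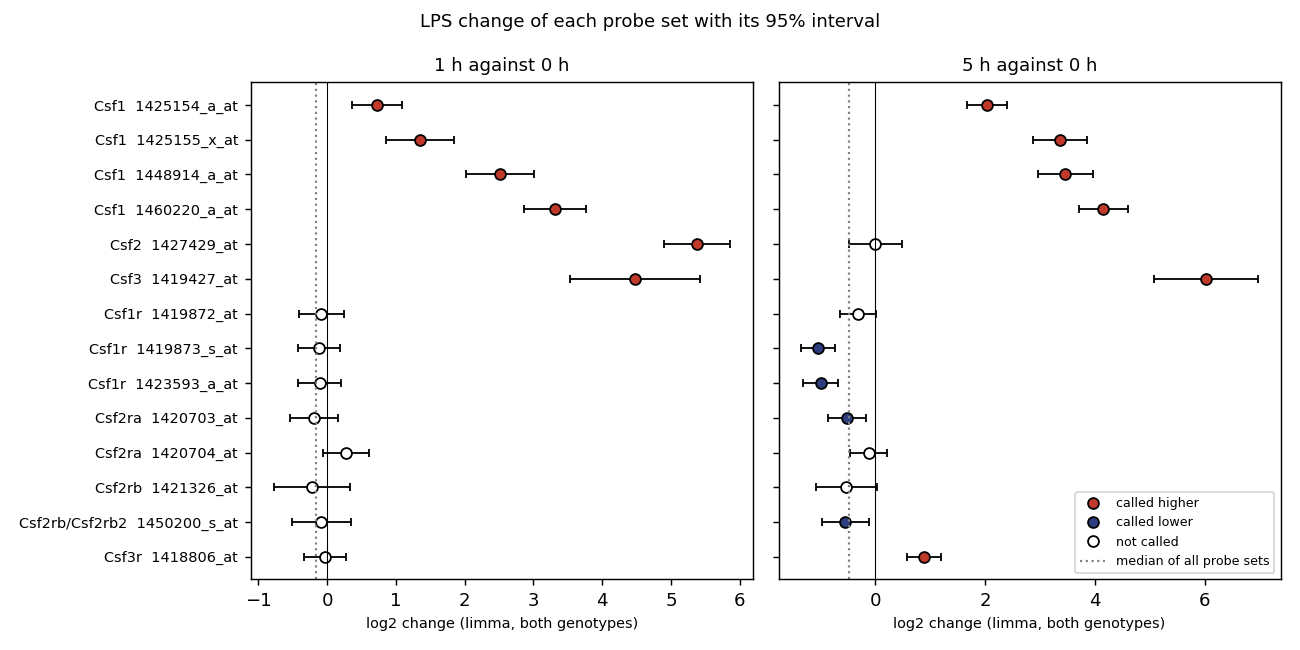
Log2 change of each probe set at 1 h (left) and 5 h (right) against 0 h, estimated by limma over both genotypes, with 95% intervals of the moderated fit. Red points were called higher, blue lower and white not called, and the dotted line is the median of all probe sets (−0.17 and −0.48). All 6 ligand probe sets lie above 0 at 1 h, and Csf3r is the receptor to the right of 0 at 5 h.

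The size of the receptor changes at 5 h, and for some probe sets the sign, depended on the scaling. Of all probe sets, 2722 were called higher and 6527 lower at 5 h on the deposited scale, 3796 and 4827 after quantile normalization, and 5413 and 3201 after median centring. After quantile normalization 1419873_s_at and 1423593_a_at of Csf1r stood at −1.21 and −1.15, against a median of all probe sets of −0.12. After median centring they stood at −0.28 and −0.24, neither called, against a median of 0.28. Relative to the median of all probe sets they were lower on the deposited scale and after quantile normalization. Median centring shifts every change and the median alike, so it repeats the deposited comparison. The third Csf1r probe set, 1419872_at, was called lower after quantile normalization (−0.38) and stood at 0.45 after median centring. Csf2ra 1420703_at stood at −0.66 after quantile normalization but at 0.25 after median centring, and Csf2rb at −0.67 and 0.23. Csf3r was higher under each scaling, with 0.72 after quantile normalization and 1.65 after median centring.

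**Figure D4:**
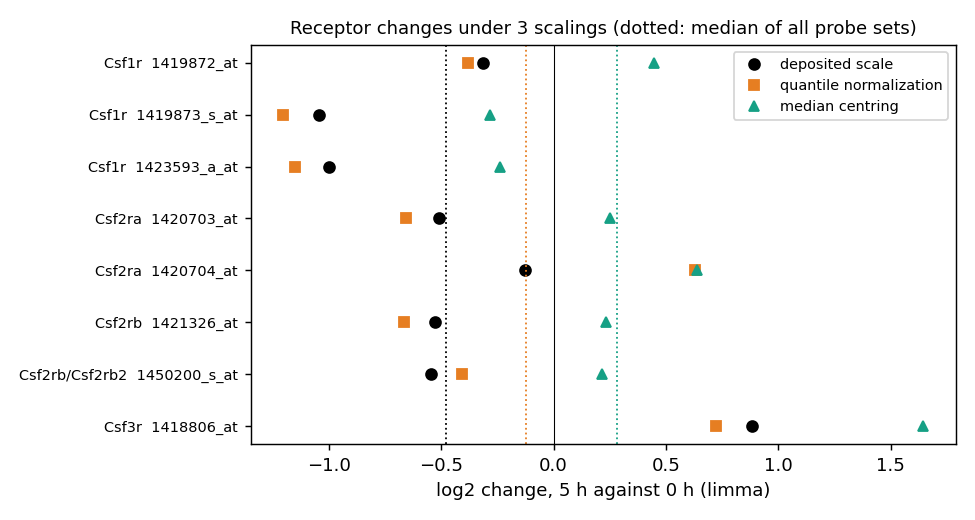
Log2 change of each receptor probe set at 5 h against 0 h under the deposited scale (black circles), quantile normalization (orange squares) and median centring (green triangles), with the median of all probe sets under each as a dotted line. Csf3r stays right of 0 under all 3, while median centring moves Csf2ra and Csf2rb to the right of 0.

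No member passed limma's test between the genotypes over the 3 times: 0 of the 14 probe sets were called, 0 had an unadjusted p under 0.05, and the lowest adjusted p was 0.602. Of all probe sets 0% were called higher and 0.0305% lower, and 1104 had an unadjusted p under 0.05. Estimates ran from −0.25 (Csf1 1425154_a_at) to 0.11 (Csf3r) on the log2 scale, knockout minus wild type. Their 95% intervals were −0.78 to 0.76 for Csf3, −0.56 to 0.22 for Csf2, −0.39 to 0.35 for Csf1 1460220_a_at, −0.58 to 0.33 for Csf2rb and −0.14 to 0.36 for Csf3r. The interval is narrower for Csf1r 1419873_s_at, at −0.29 to 0.21. For Csf2 the floor made the 0 h and 5 h pairs equal. Only its 1 h gap (log2 −0.50) entered, and its interval leaves out any gap at the other times. The knockout 0 h signal of Csf3 was also under the floor, and other settings gave Csf3 estimates of −0.65 to 0.22.

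At single times, which rest on 1 array a genotype and have no test, 0 of the 14 probe sets were 2-fold apart once signals had been raised to the floor. The share of all probe sets at least 2-fold higher in knockout was 1.02% at 0 h, 1.19% at 1 h and 1.92% at 5 h, and the share at least 2-fold lower was 1.14%, 1.92% and 2.71%. Csf3 at 0 h read 4.37 in knockout and 22.9 in wild type, so that its difference of −0.33 is a bound set by the floor, and with the floor at the 10th percentile (4.88) it was −2.23. The widest gap with both signals above the floor was that of Csf3 at 1 h, with 593 in knockout and 349 in wild type (log2 0.77), a gap wider than those of 94.3% of all probe sets on these 2 arrays. At 5 h Csf3 stood the other way, with 1121 in knockout and 1564 in wild type (log2 −0.48). Csf2 at 1 h read 639 in knockout and 905 in wild type (log2 −0.50). Csf2rb at 5 h read 1596 in knockout and 2304 in wild type (log2 −0.53), wider than 82.7% of all probe sets, and its shared probe set read 769 in knockout and 927 in wild type (log2 −0.27).

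**Figure D5:**
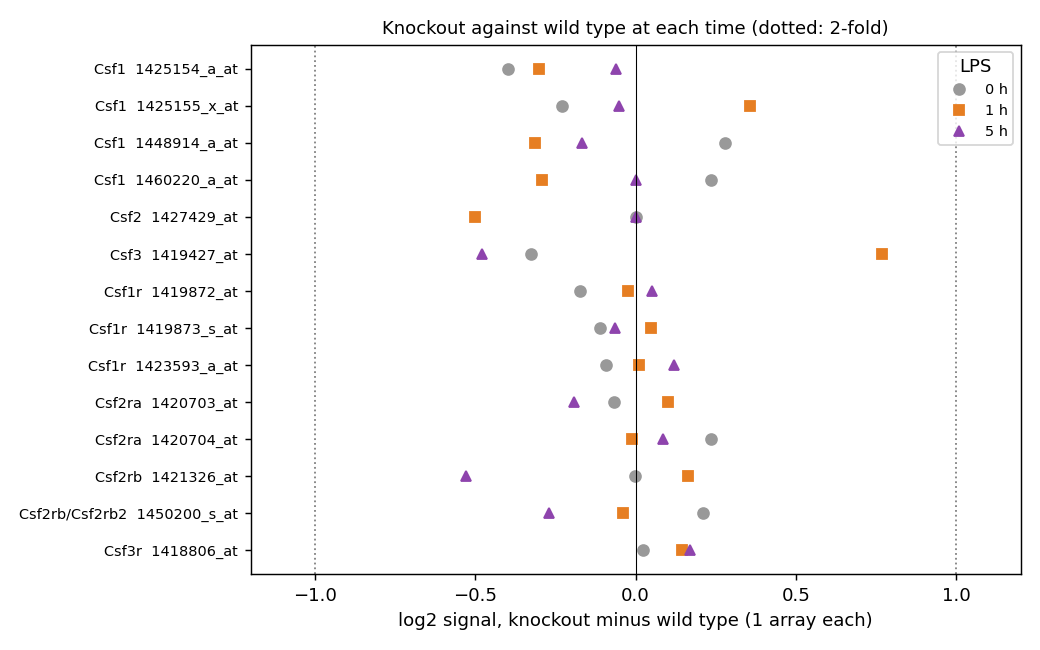
Log2 signal, knockout minus wild type, of each probe set at 0 h (grey circles), 1 h (orange squares) and 5 h (purple triangles), 1 array of each genotype per point after the floor was applied. The dotted lines mark a 2-fold difference, and all 14 probe sets lie between them at all 3 times, Csf3 at 0 h by the floor.

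The genes around these receptors were counted from lists, with up to 2 extreme genes named in each direction. Of all probe sets 5.32% were called higher and 4.6% lower at 1 h, and 20.8% higher and 49.8% lower at 5 h, against which each list's counts stand. Among other ligands and receptors of the family (Il34, Il3, Il5, Il3ra, Il5ra, Csf2rb2, Flt3, Flt3l, Kit and Kitl), 6 of 13 probe sets, of 3 genes, were bright enough to be tested. At 1 h, 0 of the 6 were called by limma and 1 had an unadjusted p under 0.05. At 5 h, 2 were called higher and 1 lower, with a median of 0.09. Kitl, the stem cell factor gene, rose by 0.60 on 1415854_at (SE 0.11, limma adjusted p = 0.00977) and by 0.49 on 1448117_at (limma adjusted p = 0.0217), while its other 2 probe sets were not called (0.26 and −0.08). Neither call held without the knockout 0 h or the wild-type 0 h array, and the fall was that of Csf2rb2, described above. The probe sets of Il34, the other ligand of Csf1r, and of Il5 read at most 14.2 and 21.8 in knockout and at most 23.6 and 23.9 in wild type.

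Genes of receptor signalling gave 43 tested probe sets of 21 genes. At 1 h, 3 were called higher and 1 lower, with a median of −0.01. At 5 h, 23 were called higher and 13 lower, with a median of 0.47, beside −0.48 for all probe sets, and after median centring 29 were called higher and 8 lower. At 1 h, 0 were called higher without either the knockout 1 h or the wild-type 1 h array. Jak2, the kinase used by the GM-CSF receptor, gave 381, 1516 and 6051 in knockout and 351, 1228 and 5576 in wild type. It rose by 1.90 on the log2 scale at 1 h (limma adjusted p = 0.00517) and by 3.99 at 5 h (limma adjusted p = 0.000404). Stat5a, a transcription factor that GM-CSF activates, gave 230, 426 and 2965 in knockout and 199.7, 354 and 2236 in wild type on 1450259_a_at. This was a rise of 0.86 at 1 h and 3.59 at 5 h. On its other probe set, 1421469_a_at, the 1 h change was not called (0.63, limma adjusted p = 0.127) and the rise at 5 h was 2.71. Each time stood apart from the others in both genes. On the falling side, the adaptor gene Dok1 fell by 0.92 at 1 h (limma adjusted p = 0.0466), a call lost under median centring, with the lower floor, without the filter and without any 1 of the 0 h and 1 h arrays. Inpp5d, which encodes the phosphatase SHIP1, gave 2234, 1703 and 80.4 in knockout and 2100, 1570 and 69.2 in wild type and fell by 4.86 at 5 h. Plcg2, a phospholipase gene, fell by 1.76 at 5 h (SE 0.13, limma adjusted p = 0.000896).

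Feedback and STAT5 target genes gave 22 tested probe sets of 10 genes: 12 were called higher and 0 lower at 1 h (median 0.66), and 10 higher and 2 lower at 5 h (median 0.72). Socs3, an inhibitor that binds the G-CSF receptor, gave 16.04, 10178 and 12159 in knockout and 52.6, 9698 and 13823 in wild type on its most changed probe set, a rise of at least 8.32 at 1 h and at least 8.71 at 5 h on the log2 scale. Myc, a growth-promoting transcription factor gene, rose by 4.28 at 1 h (limma adjusted p = 0.00763) and read 152 in knockout and 107 in wild type at 5 h. Socs1, an inhibitor of JAK kinases, gave 23.0, 244 and 2345 in knockout and 13.6, 109 and 1724 in wild type, a rise of at least 6.62 at 5 h. Probe sets of the survival gene Mcl1 differed at 5 h: 1437527_x_at (−0.46, limma adjusted p = 0.0199) and 1456243_x_at (−0.35, limma adjusted p = 0.0416) were called lower, 1416881_at (0.92, limma adjusted p = 0.00433) and 1448503_at (0.49, limma adjusted p = 0.021) higher, and the other 2 neither way. After median centring 21 probe sets of this list were called higher and 0 lower at 5 h. At 1 h, 2 were called higher without the filter and 4 without either the knockout 1 h or the wild-type 1 h array.

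Of transcription factor and shedding genes, 19 probe sets of 11 genes were tested: 7 were called higher and 0 lower at 1 h (median 0.43), and 6 higher and 2 lower at 5 h (median 0.36). Rel, an NF-κB subunit, rose by 4.69 at 1 h and 3.76 at 5 h (limma adjusted p = 0.0022 and 0.00043), and the AP-1 subunit gene Fosl1 by at least 3.02 at 1 h. Cebpb, a macrophage transcription factor gene, rose by 2.19 at 5 h. Cebpa, which is needed for granulocyte and macrophage precursors to form, gave 1829, 1002 and 44.9 in knockout and 2131, 1142 and 76.7 in wild type, a fall of 5.07 at 5 h (limma adjusted p = 0.000404). Of 5 probe sets of Runx1, which activates Csf1r transcription in myeloid cells, 1422865_at was called lower at 5 h (−0.60, limma adjusted p = 0.0293) and the other 4 were not called then. Of those, 1427650_a_at gave 66.1, 201 and 109 in knockout and 18.4, 138 and 40.9 in wild type and was called higher at 1 h (2.26, limma adjusted p = 0.0324). After median centring 15 probe sets of this list were called higher and 1 lower at 5 h. At 1 h, 2 were called higher without the filter and 1 without either the knockout 1 h or the wild-type 1 h array.

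Messages of colony-stimulating factors carry AU-rich elements and are short-lived, and factors that bind or cut such messages gave 9 tested probe sets of 6 genes. At 1 h, 4 were called higher and 1 lower (median 0.21), and at 5 h, 5 higher and 4 lower (median 0.58), the lower count being near the share of all probe sets. Without the knockout 1 h array 1 was called higher at 1 h, and without the wild-type 1 h array 2. Zfp36, the tristetraprolin gene, gave 2134, 13873 and 13391 in knockout and 1897, 12483 and 14056 in wild type, a rise of 2.71 at 1 h and 2.77 at 5 h. Zc3h12a, which encodes the ribonuclease Regnase-1, rose by 3.36 at 1 h and 3.38 at 5 h. The related genes Zfp36l2 and Zfp36l1 were called lower at 5 h. Zfp36l2 gave 6483, 2531 and 303 in knockout and 6399, 2296 and 346 in wild type, and Zfp36l1 gave 878, 2826 and 103 in knockout and 782, 2378 and 79.5 in wild type, with both 1 h arrays the highest.

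The genes whose profile over the 6 arrays was most like that of each member were ranked by the root mean square difference of mean-centred log2 signal, over 12031 to 12035 candidate probe sets. Candidates had 1 gene symbol, were in the fit and were above the floor on at least 3 arrays. Csf2 was under the floor on 4, so genes with as many floored values could not be named. For Csf2 the nearest was Ifnb1, the interferon beta gene, at 0.63, which read 50.3, 1955 and 81.4 in knockout and 88.2, 1629 and 127 in wild type. It was followed by Egr2 at 0.85 and Errfi1 at 0.86. Csf3 was nearest to Il1rn, the IL-1 receptor antagonist gene, at 0.23, which read 210, 6239 and 14315 in knockout and 202, 2772 and 15607 in wild type, then to Traf1 (0.35) and Hcar2 (0.38). Il1rn, like Csf3, was brighter in knockout than in wild type at 1 h and dimmer at 5 h, a likeness that the ranking over these same arrays favours. Csf1 1460220_a_at was nearest to Dusp16, a MAP kinase phosphatase gene (0.14), the chemokine gene Ccl5 (0.14) and Tiparp (0.18).

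The receptors moved less, so small distances say less about them. Csf3r was nearest to Flii (0.025), Poldip3 (0.026) and Spop (0.028). Csf1r 1419872_at was nearest to Mybbp1a (0.025), Tmem165 (0.033) and Tor1a (0.037), and Csf2ra 1420703_at to Eif4h (0.025), Crnkl1 (0.026) and Capzb (0.029). Csf2rb was nearest to Abcf2 (0.044), Eif2b2 (0.050) and Pgd (0.054). Pgd read 8754, 7581 and 5024 in knockout and 9342, 7475 and 7229 in wild type, again with the knockout 5 h array lowest, which the ranking favours. The 6 points of each profile share their arrays and their scaling, and with so few points many genes lie close to any member.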

How the data were processed

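The values are MAS5 intensity signals on a linear scale that the authors deposited for 22690 probe sets, with MAS5 named in the submitters' processing notes. The version of MAS5 and its scaling target were not given in the sources used here. Probe sets were named from GEO's platform annotation: 20380 have 1 gene symbol, 691 several, 1555 none, and 64 are controls, which were left out of the fit. Signals were raised to the floor of 18.2 and log2 transformed. limma 3.58.1 in R 4.3.3 was fitted to all 6 arrays with genotype and time as additive terms, leaving 2 residual degrees of freedom and a prior of 2.23. The fit was tested on simulated data. Differences at a single time have no replicate and no test. Alternatives were quantile normalization, median centring, a floor at the 10th percentile, log2(signal + 16), no filter, the brightest probe set of each gene, no genotype term, and leaving out each array. Named genes are all member probe sets, up to 2 called genes each way per list and time, and the 3 most alike genes of each member. The members and lists were chosen with earlier results of these data known. With no statement of separate cultures or animals, the p-values measure only the spread between these arrays, and the number of arrays limits the precision.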

Additional observations from a re-analysis of the deposited data

Results flagged for a closer look

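With 1 array of each genotype at each time, 3 member results moved in opposite directions in knockout and wild type, and none of these differences could be tested. The share of all probe sets that did so was not counted, so the 3 are given as values only. Csf2rb 1421326_at changed by −0.65 on the log2 scale between 1 h and 5 h in knockout and by 0.041 in wild type. The probe set shared by Csf2rb and Csf2rb2 changed by −0.21 between 0 h and 1 h in knockout and by 0.039 in wild type. Csf3r changed by 0.028 between 0 h and 1 h in knockout and by −0.094 in wild type. Several of these changes lay near 0. The wild-type changes of Csf2rb and of the shared probe set were wider than those of only 3.07% and 6.66% of all probe sets tested. Those of Csf3r were wider than 5.14% in knockout and 16.1% in wild type.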

How the results depend on the processing

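Of 686 member results recomputed under an alternative, 616 kept their call or lack of one, 56 lost a call, 6 gained one and 8 turned sign or left 0 with a call before or after, and a sign turned in 50 of those never called. Of the 6 probe sets called higher at 1 h, without the filter, which put 22626 probe sets in the fit, 1 was called, and with the brightest probe set of each gene, which leaves fewer to call, 3. With that setting 3 were called higher and 1 lower at 5 h against 0 h, and 3 and 1 at 5 h against 1 h. Without the filter 2 were called lower at 5 h against 0 h and 3 higher at 5 h against 1 h. After median centring 0 were called lower at 5 h against 0 h and 1 at 5 h against 1 h. Leaving out 1 array, which leaves 1 residual degree of freedom, gave 3 to 4 called higher at 1 h, 2 to 5 lower at 5 h against 0 h, and 3 to 6 higher at 5 h against 1 h. Against 0 h, the 5 h values that turned sign were 0.63 (quantile normalization) and 0.64 (median centring) for Csf2ra 1420704_at, and under median centring 0.25 for Csf2ra 1420703_at and 0.22 for the shared beta-chain probe set. Median centring adds the same 0.76 to every floored 5 h change, which is all of the 0.76 it gives Csf2, at 0 by the floor. With the floor at the 10th percentile Csf2 stood at 1.25. Against 1 h, Csf2ra 1420704_at stood at 0.20 after quantile normalization and 0.18 after median centring. With that lower floor 1 probe set, Csf3, was 2-fold apart between the genotypes at 0 h. The cause of these shifts was not tested where none is named. Over all probe sets, 2722 were called higher and 6527 lower at 5 h, against 5413 and 3201 after median centring, and 697 higher and 603 lower at 1 h, against 147 and 87 without the filter and 110 and 10 without the wild-type 1 h array. Each genotype and time has 1 array, so no replicate number could serve as a block. Genotype was itself a term of the fit, so LPS changes were taken within genotype. Signals under the floor have no order, which limits Csf2 and Csf3 at 0 h.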
